A study of Mus musculus with 6 samples.

Results

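The nuclear genes of the oxidative phosphorylation machinery were examined in colon RNA from mice with colitis induced by dextran sodium sulfate (DSS). Genes were taken by symbol: those starting with Nduf, Uqcr, Atp5 or Cox4 to Cox8, together with Sdha, Sdhb, Sdhc, Sdhd and Cyc1. The rule used no measured value and took 95 of the 18477 genes in the table, of which 40 belong to complex I, 4 to complex II, 9 to complex III, 17 to complex IV and 17 to complex V, and 8 are assembly factors of complex I (Ndufaf genes). The groups were the DSS group, 3 mice given DSS in the drinking water and gavaged with PBS, and the DSS+BV group, 3 mice given the same DSS and gavaged with *Bacteroides vulgatus* (*B. vulgatus*). Each library was made from the colon of a single mouse. All were male, young adult C57BL/6 mice without a named transgene or deletion, all received DSS, and mice without DSS were not analysed here. The comparison therefore asks how these genes differed between colitis with and without the bacterium.

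Oxidative phosphorylation takes place in the inner mitochondrial membrane. Complex I oxidises NADH and complex II oxidises succinate, complex III passes the electrons to cytochrome c, and complex IV gives them to oxygen. Complexes I, III and IV pump protons, and complex V, the ATP synthase, uses the gradient to make ATP. Colonocytes rely on this route to burn butyrate and other short-chain fatty acids from the microbiota, which uses up oxygen at the mucosal surface. Most subunits are encoded in the nucleus. A few of complexes I, III, IV and V are encoded by mitochondrial DNA and were not analysed here.

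Whole colon was sequenced, so the markers of its cell types set the frame for the values that follow. Library totals lay between 15293276 and 17254343 expected counts. Of 14 markers of the colon epithelium, 13 had a log2 fold change above 0, 5 of them at an unadjusted p under 0.05 (35.7%, against 3.4% of all tested genes). The other marker, Car4, had −1.10, and the median over the 14 was 0.40. The summed level of the 14 was 14181 to 17844 CPM (counts scaled to a common library size) in the DSS libraries and 21348 to 32776 CPM in the DSS+BV libraries. Car1 alone gave much of the higher sum. It measured 825, 1041 and 939 CPM in DSS libraries 1 to 3 and 924, 10453 and 8702 CPM in DSS+BV libraries 1 to 3. Median log2 fold changes of the other marker lists were −3.43 for neutrophils, −0.97 for fibroblasts, −0.79 for macrophages, −0.72 for pericytes, −0.58 for lymphocytes, −0.48 for adipocytes (4 of 8 markers passed the filter on low counts) and −0.14 for smooth muscle, while skeletal muscle had 0.61 over 4 of 12 markers that passed the filter. In bulk tissue, fewer cells of a type and less RNA per cell cannot be told apart. A pair of libraries stood apart from their groups. Over 14579 genes, DSS library 2 had a mean Pearson r of 0.945 with the other DSS libraries and 0.964 with the DSS+BV libraries, and DSS+BV library 1 had 0.955 with its own group and 0.961 with the DSS libraries. Counts are therefore also given without this pair.

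The starts of these genes were examined next, since many nuclear genes for mitochondrial proteins are known targets of the nuclear respiratory factor NRF1. RefSeq promoters (GRCm38.p6, 250 bases before to 50 after the start) were found for 76 of the 95 genes, 81 promoters in all. The NRF1 motif, searched on both strands as GCGCA and GCGC with any 1 base between them, was in 20 of the 81 (24.7%), against 4.603% of all 32851 promoters and 8.64% of the 14764 promoters of genes tested here. The YY1 motif, AAGATG followed at once by GCGG, was in 7.41% (against 0.852% of all and 1.71% of tested genes' promoters), the GABPA motif CCGGAAGT in 6.17% (against 3.89% and 6.96%), the oestrogen-related receptor motif TCAAGGTCA in 2.47% (against 0.423% and 0.257%) and the GC box GGGCGGGG in 18.5% (against 17.6% and 30.4%). The 120 bases before the start are shown for 5 genes with contrasting content of the NRF1 motif that are described further on: Sdha at chr13:74350241-74350360 (minus strand), Sdhd at chr9:50603850-50603969 (minus strand), Ndufaf4 at chr4:24897963-24898082 (plus strand), Uqcrfs1 at chr13:30545317-30545436 (minus strand) and Cox5a at chr9:57521112-57521231 (plus strand). Capitals mark the NRF1 motif.

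Sdha: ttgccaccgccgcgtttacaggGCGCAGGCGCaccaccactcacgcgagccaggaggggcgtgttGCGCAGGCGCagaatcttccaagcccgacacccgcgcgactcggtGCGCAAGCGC
Sdhd: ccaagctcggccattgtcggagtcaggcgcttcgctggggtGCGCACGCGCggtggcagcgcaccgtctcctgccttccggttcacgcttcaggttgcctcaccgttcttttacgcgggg
Ndufaf4: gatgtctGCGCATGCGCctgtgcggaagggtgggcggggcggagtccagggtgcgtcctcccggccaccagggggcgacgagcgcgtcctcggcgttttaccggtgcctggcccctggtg
Uqcrfs1: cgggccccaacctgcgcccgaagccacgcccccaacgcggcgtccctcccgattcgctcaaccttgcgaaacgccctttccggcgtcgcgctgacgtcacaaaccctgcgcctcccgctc
Cox5a: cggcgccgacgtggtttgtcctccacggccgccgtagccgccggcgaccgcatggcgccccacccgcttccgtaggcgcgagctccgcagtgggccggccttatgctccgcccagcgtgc

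Sdha held 3 copies of the motif, Sdhd and Ndufaf4 held 1 each, and the stretches of Uqcrfs1 and Cox5a held none. The Cox5a stretch lies inside the annotated span of the gene, which begins at an earlier start. Genes with and without the motif had similar fitted differences between the groups. The 19 tested genes with an NRF1 motif had a median of 0.21 on the log2 scale, and the 55 tested genes whose promoters lacked it had 0.16.

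Most oxidative phosphorylation genes had a slightly higher fitted level in the DSS+BV group, but none passed the edgeR test. A gene was called where its edgeR adjusted p was under 0.05 and its log2 fold change exceeded 1 in size. Of the 95 genes, 90 passed the filter on low counts; Ndufb4b, Cox4i2, Cox6a2, Cox8b and Cox8c did not. None of the 90 was called in either direction, while 0.0892% of all tested genes were called lower and 0% higher in DSS+BV. At an unadjusted p under 0.05, 6 of the 90 were higher (6.67%, against 3.4% of all tested genes) and 0 were lower (against 9.12%). These 6 were Ndufb4, Ndufaf4, Uqcrfs1, Cox5a, Cox7b and Atp5c1. DESeq2 gave an adjusted p under 0.05 to 2 of them, Cox5a (0.00973) and Ndufb4 (0.0358), both under the fold threshold, while it did so for 0.458% of all genes in this direction and 2.12% in the other. With the fold threshold DESeq2 called no member, against 0.279% of all genes higher and 1.73% lower. The smallest edgeR adjusted p among the 90 was 0.281.

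The direction was shared across the set. The fitted log2 fold change was above 0 for 77 of 90 (85.6%), against 48.5% of all tested genes and 62.0% of the 6558 other genes with a mean above 30 CPM. Its median was 0.18, a 1.14-fold difference, with the middle 50% of genes from 0.062 to 0.33. The median was −0.011 over all tested genes and 0.078 over the other genes above 30 CPM. In 20 of 90 genes (22.2%) each DSS+BV library lay above each DSS library (separate groups), against 6.37% of all tested genes, and in 0 the order was the opposite, against 11.3%. Without DSS library 2 and DSS+BV library 1, these counts were 89 of 91 above 0 (97.8%, against 49.5% of all) and 57 of 91 with separate groups (62.6%, against 24.8% of all with 2 libraries a group). In the same fit 16 reached an unadjusted p under 0.05, and the median was 0.34. This pair was left out because it lay nearer to the other group, so a wider difference follows in part from that choice. Leaving out a single library moved the count at an unadjusted p under 0.05 from 6 to 2 (DSS library 3 or DSS+BV library 2) or to 12 (DSS library 2), while without DSS+BV library 3 it was 3 higher and 1 lower (Cox6b2), and the count with separate groups to 40 (DSS library 2 or DSS+BV library 1).

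Taken as a whole, the set did not separate the groups. The median deviation of the members from their own means, in log2 CPM, was −0.058, 0.042 and −0.25 in DSS libraries 1 to 3 and −0.053, 0.14 and 0.21 in DSS+BV libraries 1 to 3. The groups overlapped, because DSS library 2 lay above DSS+BV library 1. DSS library 3 was the lowest of the 6 libraries for 50 of 90 members and DSS library 1 for 24, whereas over all tested genes these shares were 26.2% and 17.2%. DSS+BV library 3 was the highest for 48 and DSS+BV library 2 for 25, against 17.6% and 10.8% of all tested genes. Neither of these DSS+BV libraries was the lowest for any tested member, and DSS+BV library 1 was the lowest of its group for 81. The summed level of the members was 12776, 14199 and 11121 CPM in DSS libraries 1 to 3 and 13756, 15878 and 16182 CPM in DSS+BV libraries 1 to 3, with a ratio of group means of 1.203.

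**Figure D1:**
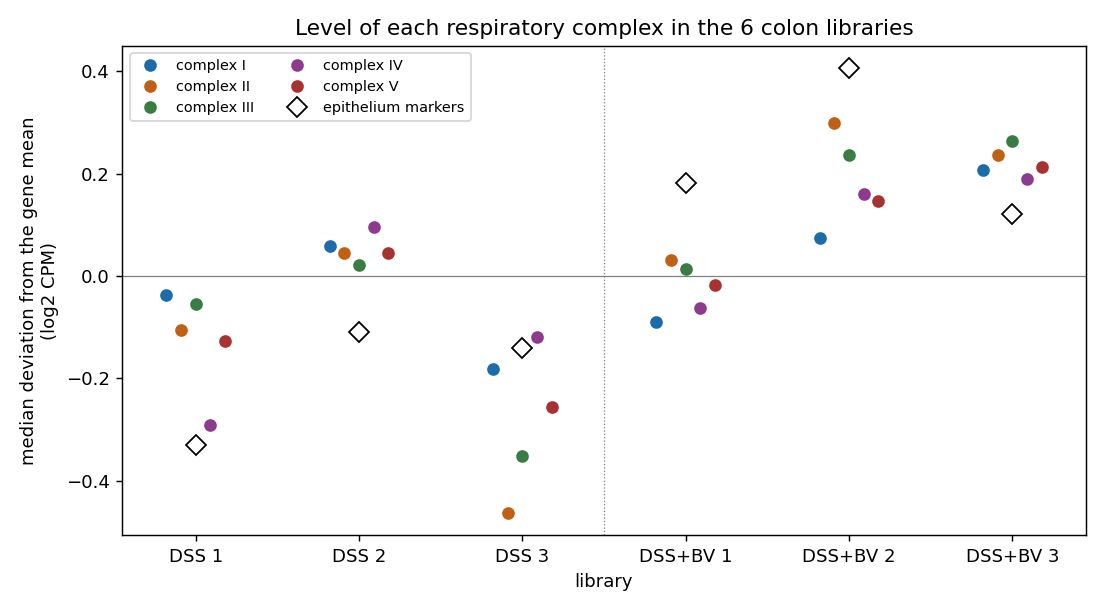
Median deviation of each complex's subunits from the gene mean (log2 CPM, y axis) in each of the 6 libraries (x axis), with coloured points for complexes I to V and open diamonds for 14 epithelium markers. DSS+BV libraries 2 and 3 lie above 0 for each complex, DSS+BV library 1 lies near 0 and DSS library 2 lies above 0, so that the groups overlap.

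The epithelium markers ordered the libraries in another way. Their median deviation was −0.33, −0.11 and −0.14 in DSS libraries 1 to 3 and 0.18, 0.41 and 0.12 in DSS+BV libraries 1 to 3, so that each DSS+BV library lay above each DSS library. The difference between the members' and the markers' deviation was 0.272, 0.152 and −0.105 in DSS libraries 1 to 3 and −0.234, −0.267 and 0.0938 in DSS+BV libraries 1 to 3. Relative to these markers the members were thus lowest in DSS+BV libraries 1 and 2. The part of the epithelium in the members' difference was not tested.

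The complexes are set side by side here by level and by difference. Per kilobase of transcript, the median level was 390.4 CPM for complex IV, 249 for complex V, 171 for complex III, 122 for complex II and 77.2 for complex I, against 9.19 for the assembly factors and 9.55 for all tested genes. The median log2 fold change was 0.35 for complex II, 0.27 for complex V, 0.23 for complex III, 0.22 for the assembly factors, 0.13 for complex IV and 0.12 for complex I. These medians moved with single libraries. That of complex III lay between 0.18 and 0.42 and that of complex I between 0.026 and 0.21 when 1 library was left out. The order of the complexes was not tested.

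**Figure D2:**
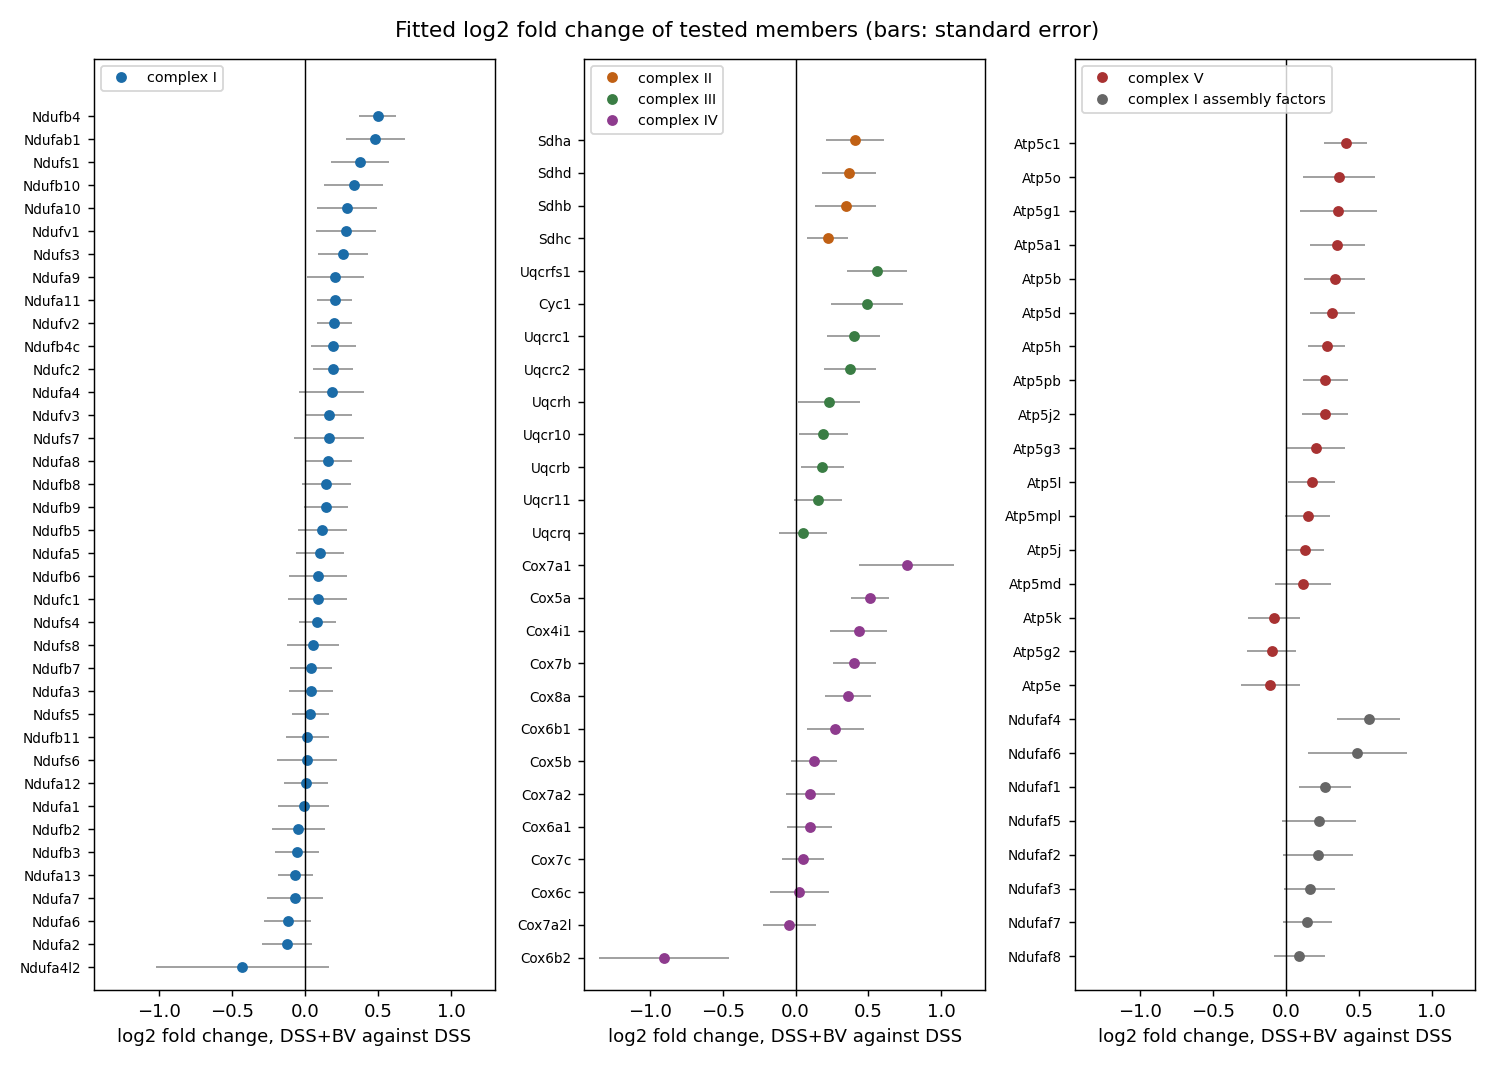
Fitted log2 fold change of DSS+BV against DSS (x axis, bars are the standard error) for 89 tested genes (y axis), by complex. Points lie to the right of 0 for 76 of them, and none reaches 1 in size.

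Complex I, the NADH dehydrogenase, had 31 of 39 tested subunits above 0 and 4 with separate groups (10.3%, against 6.37% of all tested genes). Its 7 nuclear core subunits, which carry the flavin, the iron-sulphur clusters and the quinone site, were all 7 above 0, at a median of 0.20 on the log2 scale, while the 32 tested accessory subunits, which surround the core, had a median of 0.086 and 8 below 0. Ndufs1, the largest core subunit with several iron-sulphur clusters, measured 152, 167 and 103 CPM in DSS libraries 1 to 3 and 172, 195 and 179 CPM in DSS+BV libraries 1 to 3. Each DSS+BV library lay above each DSS library, with a log2 fold change of 0.38 (SE 0.20, edgeR adjusted p = 0.487). Ndufv1, the flavin subunit that takes electrons from NADH, measured 122, 138 and 99.6 CPM in DSS libraries 1 to 3 and 114, 145 and 177 CPM in DSS+BV libraries 1 to 3. Its groups overlapped, with a log2 fold change of 0.28 (SE 0.21, edgeR adjusted p = 0.609). All 7 core subunits had their lowest value in DSS library 3.

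Among accessory subunits, the smallest p-values belonged to Ndufb4 and Ndufab1. Ndufb4, a membrane arm subunit, measured 33.2, 32.3 and 38.2 CPM in DSS libraries 1 to 3 and 49.3, 49.6 and 47.7 CPM in DSS+BV libraries 1 to 3, or 34.6 ± 3.18 CPM over the DSS libraries and 48.9 ± 1.01 CPM over the DSS+BV libraries (mean ± SD, n = 3). The groups were separate, with a log2 fold change of 0.50 (SE 0.13, edgeR adjusted p = 0.281). This value is uncertain, because Ndufb4 shares reads with the near-identical Ndufb4b and Ndufb4c. The expected counts of the 3 genes summed to whole numbers within 0.02 reads in 6 of 6 libraries. Ndufb4c measured 29.999, 30.6 and 24.6 CPM in DSS libraries 1 to 3 and 31.3, 30.1 and 36.2 CPM in DSS+BV libraries 1 to 3, with overlapping groups. Ndufb4b held at most 0.319 CPM. The sum of the family was 63.2, 63.0 and 62.8 CPM in DSS libraries 1 to 3 and 80.8, 80.0 and 83.9 CPM in DSS+BV libraries 1 to 3. Fitted as 1 row, it had a log2 fold change of 0.37 (SE 0.10, edgeR adjusted p = 0.311). The groups stayed separate and the difference was smaller than for Ndufb4 alone. The DESeq2 adjusted p was 0.046 for the summed row and 0.0358 for Ndufb4 alone. Ndufab1, the mitochondrial acyl carrier protein, which also serves mitochondrial fatty acid synthesis, measured 102, 86.2 and 69.2 CPM in DSS libraries 1 to 3 and 96.8, 122 and 139.8 CPM in DSS+BV libraries 1 to 3. Its groups overlapped, with a log2 fold change of 0.48 (SE 0.20, edgeR adjusted p = 0.399).

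Ndufa4, listed with complex I by its symbol but now regarded as a subunit of complex IV, measured 72.1, 119 and 93.9 CPM in DSS libraries 1 to 3 and 87.7, 109.8 and 126 CPM in DSS+BV libraries 1 to 3. Its paralogue Ndufa4l2, known as a hypoxia-inducible gene, was lowly expressed at 0.599, 0.870 and 2.15 CPM in DSS libraries 1 to 3 and 0.528, 1.21 and 0.948 CPM in DSS+BV libraries 1 to 3. It was highest in DSS library 3, and its log2 fold change of −0.43 (SE 0.59, edgeR adjusted p = 0.788) turned to 0.29 without that library. Other subunits with a log2 fold change below 0 were Ndufa2 (−0.13), Ndufa6 (−0.12), Ndufa7 (−0.070), Ndufa13 (−0.068), Ndufb3 (−0.059), Ndufb2 (−0.046) and Ndufa1 (−0.011), none at an unadjusted p under 0.05.

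The assembly factors of complex I, which are not part of the finished enzyme, were all 8 above 0, and all 8 were lowest in DSS library 3. Ndufaf4, on chromosome 4 with the NRF1 motif shown earlier, measured 32.9, 25.7 and 20.3 CPM in DSS libraries 1 to 3 and 35.5, 45.2 and 36.2 CPM in DSS+BV libraries 1 to 3, or 26.3 ± 6.36 CPM over the DSS libraries and 39.0 ± 5.44 CPM over the DSS+BV libraries (mean ± SD, n = 3). The groups were separate, with a log2 fold change of 0.57 (SE 0.22, edgeR adjusted p = 0.378). Ndufaf1, which acts early in the assembly of the membrane arm, measured 14.3, 13.9 and 12.5 CPM in DSS libraries 1 to 3 and 14.5, 15.8 and 18.7 CPM in DSS+BV libraries 1 to 3, again with separate groups and a log2 fold change of 0.27 (SE 0.18, edgeR adjusted p = 0.570). The other 6 overlapped, with log2 fold changes from 0.092 (Ndufaf8) to 0.49 (Ndufaf6).

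Complex II, the succinate dehydrogenase, joins the citric acid cycle to the respiratory chain and is encoded wholly in the nucleus. The median over its 4 genes was 0.35 on the log2 scale. Sdha, the flavoprotein that oxidises succinate, measured 340.3, 423 and 275 CPM in DSS libraries 1 to 3 and 399.9, 497 and 478 CPM in DSS+BV libraries 1 to 3. The DSS value of library 2 lay above the DSS+BV value of library 1, so the groups overlapped, with a log2 fold change of 0.41 (SE 0.20, edgeR adjusted p = 0.456). Sdhb, the iron-sulphur subunit, measured 106, 124 and 89.3 CPM in DSS libraries 1 to 3 and 110.0, 125 and 170.4 CPM in DSS+BV libraries 1 to 3, with a log2 fold change of 0.34 (SE 0.21, edgeR adjusted p = 0.538). Its groups also overlapped. The membrane anchors were separate. Sdhc measured 140.0, 139 and 118 CPM in DSS libraries 1 to 3 and 147, 172 and 144 CPM in DSS+BV libraries 1 to 3, with a log2 fold change of 0.22 (SE 0.14, edgeR adjusted p = 0.550). Sdhd measured 219.7, 231 and 156 CPM in DSS libraries 1 to 3 and 236, 286 and 261 CPM in DSS+BV libraries 1 to 3, with a log2 fold change of 0.37 (SE 0.19, edgeR adjusted p = 0.470). All 4 genes had their lowest value in DSS library 3, and without it the median of the complex was 0.22 and that of complex III was 0.24. Summed, the complex measured 806, 918 and 639 CPM in DSS libraries 1 to 3 and 893, 1079.8 and 1054 CPM in DSS+BV libraries 1 to 3. DSS library 2 again exceeded DSS+BV library 1.

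Complex III, the cytochrome bc1 complex, had 9 of 9 genes above 0. The fitted differences of its catalytic and core subunits were larger than those of its small subunits. Uqcrfs1, the Rieske iron-sulphur protein, measured 182, 199.5 and 132 CPM in DSS libraries 1 to 3 and 209, 271 and 277 CPM in DSS+BV libraries 1 to 3, or 171 ± 35.1 CPM over the DSS libraries and 252 ± 37.8 CPM over the DSS+BV libraries (mean ± SD, n = 3). Each DSS+BV library lay above each DSS library, with a log2 fold change of 0.56 (SE 0.20, edgeR adjusted p = 0.366). Cyc1, the haem protein cytochrome c1, measured 213, 182 and 115 CPM in DSS libraries 1 to 3 and 204, 249 and 263 CPM in DSS+BV libraries 1 to 3. DSS library 1 exceeded DSS+BV library 1, and the log2 fold change of 0.49 (SE 0.25, edgeR adjusted p = 0.464) came with overlapping groups. Uqcrc1 and Uqcrc2, the core proteins of the matrix side, were both separate. Uqcrc1 measured 211, 202 and 143 CPM in DSS libraries 1 to 3 and 223, 257 and 255 CPM in DSS+BV libraries 1 to 3, with a log2 fold change of 0.40 (SE 0.18, edgeR adjusted p = 0.429). Uqcrc2 measured 295, 324 and 226 CPM in DSS libraries 1 to 3 and 328, 393 and 375 CPM in DSS+BV libraries 1 to 3, with a log2 fold change of 0.37 (SE 0.18, edgeR adjusted p = 0.445). The 5 small subunits Uqcrh, Uqcr10, Uqcrb, Uqcr11 and Uqcrq overlapped, at log2 fold changes from 0.051 (Uqcrq) to 0.23 (Uqcrh).

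Complex IV, the cytochrome c oxidase, held the gene with the smallest DESeq2 adjusted p of the set. Cox5a, a nuclear subunit on the matrix side, measured 227, 243 and 212 CPM in DSS libraries 1 to 3 and 302, 339.9 and 329 CPM in DSS+BV libraries 1 to 3, or 227 ± 15.3 CPM over the DSS libraries and 324 ± 19.3 CPM over the DSS+BV libraries (mean ± SD, n = 3). The lowest DSS+BV value lay well above the highest DSS value, with a log2 fold change of 0.51 (SE 0.13, edgeR adjusted p = 0.281) and a DESeq2 adjusted p of 0.00973. Cox7b, a small membrane subunit, measured 255, 319.9 and 262 CPM in DSS libraries 1 to 3 and 352, 386 and 368 CPM in DSS+BV libraries 1 to 3. The groups were separate, with a log2 fold change of 0.40 (SE 0.15, edgeR adjusted p = 0.368). Cox8a, the ubiquitous isoform of the smallest subunit, measured 272, 351 and 299 CPM in DSS libraries 1 to 3 and 355, 405 and 423 CPM in DSS+BV libraries 1 to 3, also with separate groups and a log2 fold change of 0.36 (SE 0.16, edgeR adjusted p = 0.415). Cox4i1, the ubiquitous form of the subunit known to bind ATP and the most abundant of the complex by CPM, measured 360.4, 436 and 389 CPM in DSS libraries 1 to 3 and 411, 564 and 625 CPM in DSS+BV libraries 1 to 3. Its groups overlapped, with a log2 fold change of 0.43 (SE 0.20, edgeR adjusted p = 0.429). The remaining abundant genes placed here by symbol, Cox5b, Cox6a1, Cox6b1, Cox6c, Cox7a2, Cox7a2l and Cox7c, overlapped, at log2 fold changes from −0.042 (Cox7a2l) to 0.27 (Cox6b1). Complex IV had 9 of 13 tested genes lowest in DSS library 1. Cox7a2l was at 0.17 without DSS library 2. Without DSS library 1 the complex's median was 0.073.

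**Figure D3:**
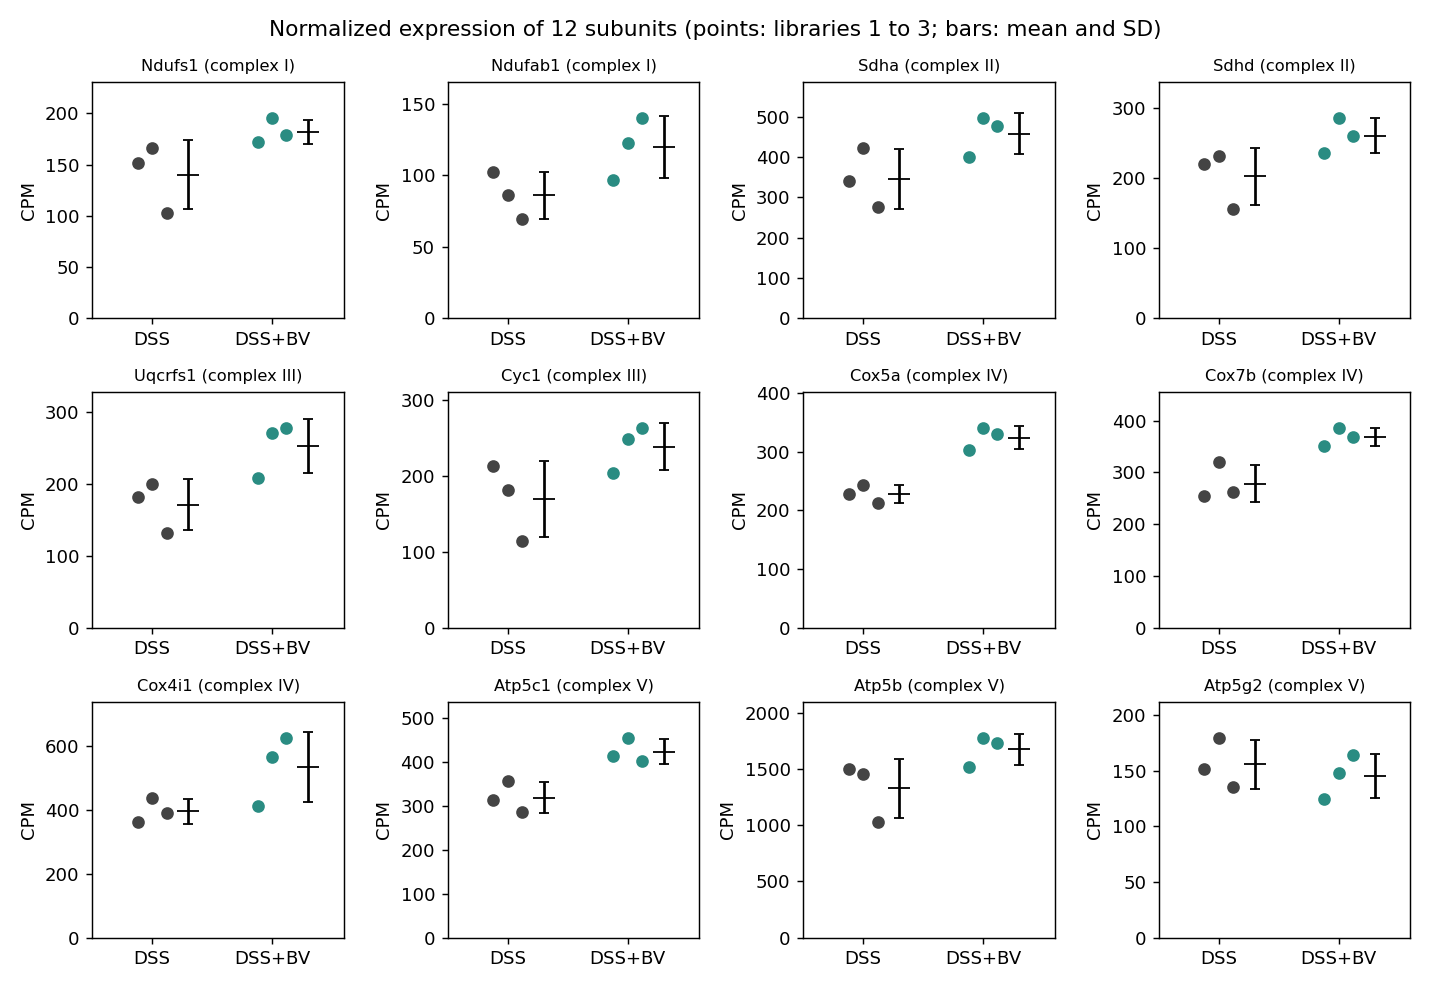
CPM (y axis, from 0) of 12 subunits of complexes I to V in DSS and DSS+BV, with points for libraries 1 to 3 and bars for mean and SD (n = 3). Ndufs1, Sdhd, Uqcrfs1, Cox5a, Cox7b, Atp5c1 and Atp5b show no overlap between the groups, while Ndufab1, Sdha, Cyc1, Cox4i1 and Atp5g2 overlap.

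Complex IV has isoforms tied to tissues, and in these libraries the ubiquitous ones held most of the reads. Cox6a2, Cox8b and Cox8c, of heart and skeletal muscle or testis, and Cox4i2, of lung and other oxygen-sensing tissue, stayed below the filter. Cox8c had 0 reads in each library, and Cox4i2 measured 0.419, 0.497 and 0.932 CPM in DSS libraries 1 to 3 and 0.594, 0.637 and 0.885 CPM in DSS+BV libraries 1 to 3. Cox6b2, the testis form, measured 1.44, 2.36 and 2.56 CPM in DSS libraries 1 to 3 and 0.660, 1.08 and 1.64 CPM in DSS+BV libraries 1 to 3. Its groups overlapped, with a log2 fold change of −0.90 (SE 0.45, edgeR adjusted p = 0.459), the lowest log2 fold change of the set. As a percentage of Cox6b1, per kilobase, its level was 1.11, 1.150 and 1.33% in DSS libraries 1 to 3 and 0.327, 0.5002 and 0.754% in DSS+BV libraries 1 to 3. Cox7a1, the form of heart and skeletal muscle, measured 2.57, 4.91 and 3.32 CPM in DSS libraries 1 to 3 and 5.94, 7.33 and 5.06 CPM in DSS+BV libraries 1 to 3. It had the highest log2 fold change of the set and separate groups, with a log2 fold change of 0.76 (SE 0.32, edgeR adjusted p = 0.401). As a percentage of Cox7a2, per kilobase, its level was 2.90, 5.33 and 4.68% in DSS libraries 1 to 3 and 7.30, 8.77 and 4.81% in DSS+BV libraries 1 to 3. Of 12 skeletal muscle markers, 4 passed the filter, and these 4 had a summed level of 6.83 to 13.1 CPM over the DSS libraries and 12.005 to 27.7 CPM over the DSS+BV libraries. Acta1, the skeletal muscle actin, measured 1.44, 6.53 and 5.94 CPM in DSS libraries 1 to 3 and 5.21, 13.3 and 15.4 CPM in DSS+BV libraries 1 to 3 and, with Ckm (4.42 CPM in the DSS mean and 8.17 in the DSS+BV mean), gave most of this sum. Of the markers that did not pass, some lay lower in the DSS+BV mean. Myl1 had means of 0.619 and 0.237 CPM with each DSS+BV library below each DSS library, Actn3 0.771 and 0.344 CPM, and Tnnt3 0.339 and 0.260 CPM. Pvalb was at 0 in 6 of 6 libraries. The part of muscle in the level of Cox7a1 was not tested.

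Complex V, the ATP synthase, was the most abundant complex by summed CPM, and 14 of 17 subunits were above 0. Of the 17, 5 (29.4%) had separate groups, against 6.37% of all tested genes. Atp5b, the catalytic beta subunit and the most abundant member, measured 1505, 1456 and 1028 CPM in DSS libraries 1 to 3 and 1515, 1777 and 1732 CPM in DSS+BV libraries 1 to 3, or 1329.6 ± 262 CPM over the DSS libraries and 1675 ± 139.9 CPM over the DSS+BV libraries (mean ± SD, n = 3). The lowest DSS+BV value lay just above the highest DSS value, with a log2 fold change of 0.33 (SE 0.21, edgeR adjusted p = 0.544). Atp5a1, the alpha subunit, measured 1121, 1231 and 887 CPM in DSS libraries 1 to 3 and 1290.0, 1502 and 1344 CPM in DSS+BV libraries 1 to 3, also with separate groups and a log2 fold change of 0.35 (SE 0.19, edgeR adjusted p = 0.487). Atp5c1, the gamma subunit that turns within the catalytic head, measured 314, 356 and 286 CPM in DSS libraries 1 to 3 and 414, 454 and 401 CPM in DSS+BV libraries 1 to 3. The groups were clearly apart, with a log2 fold change of 0.41 (SE 0.15, edgeR adjusted p = 0.361). Atp5h, part of the peripheral stalk, measured 136, 153 and 144 CPM in DSS libraries 1 to 3 and 158, 183 and 184 CPM in DSS+BV libraries 1 to 3, with separate groups and a log2 fold change of 0.28 (SE 0.13, edgeR adjusted p = 0.429). Atp5d, the delta subunit of the central stalk, was separate as well (log2 fold change 0.32). Below 0 were Atp5e (−0.11), Atp5g2 (−0.098) and Atp5k (−0.080), all overlapping, and Atp5g2 was at 0.031 without DSS library 2.

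The c ring that the protons turn is made of a single protein encoded by 3 genes, which differ in the mitochondrial targeting sequence. Atp5g1 measured 204, 154 and 104 CPM in DSS libraries 1 to 3 and 169.7, 189 and 236 CPM in DSS+BV libraries 1 to 3, with a log2 fold change of 0.36 (SE 0.26, edgeR adjusted p = 0.606). Atp5g2 measured 152, 179.5 and 136 CPM in DSS libraries 1 to 3 and 124, 148 and 164 CPM in DSS+BV libraries 1 to 3, with a log2 fold change of −0.098 (SE 0.17, edgeR adjusted p = 0.834). Atp5g3 measured 373, 359.8 and 238 CPM in DSS libraries 1 to 3 and 351, 381 and 388 CPM in DSS+BV libraries 1 to 3, with a log2 fold change of 0.21 (SE 0.20, edgeR adjusted p = 0.692). All 3 overlapped, and Atp5g3 gave the largest share in each library. The share of Atp5g2 in their summed CPM was 20.9, 25.9 and 28.3% in DSS libraries 1 to 3 and 19.3, 20.6 and 20.8% in DSS+BV libraries 1 to 3. The lowest DSS share and the highest DSS+BV share nearly met.

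Genes that act beside the complexes were compared in the same fit, as lists described by counts and medians. The citric acid cycle and pyruvate dehydrogenase, which supply NADH and succinate, had a median of 0.39 on the log2 scale over 18 genes, with 18 above 0, 9 with separate groups (50%, against 6.37% of all tested genes) and 4 higher at an unadjusted p under 0.05 (22.2%, against 3.4%). Ogdh, a subunit of 2-oxoglutarate dehydrogenase, measured 279, 354 and 261 CPM in DSS libraries 1 to 3 and 419, 453 and 467 CPM in DSS+BV libraries 1 to 3, with a log2 fold change of 0.58 (SE 0.16, edgeR adjusted p = 0.313). Fatty acid oxidation had 0.33 over 15 genes, none at an unadjusted p under 0.05 in either direction, with Etfdh, which hands electrons to coenzyme Q, at 0.43 and Acadl at −0.47. Coenzyme Q synthesis had 0.23 over 13 genes, with Coq5 at 0.58 and Coq8b at −0.25. The assembly factors outside the member rule had 0.17 over 39 genes, 3 of them (7.69%) higher at an unadjusted p under 0.05 (Sdhaf1, Uqcc1 and Sco1) and 0 lower, with the lowest p below 0 for Cox17 (−0.26). None of the genes of these lists was called.

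Carriers, porins and import receptors had a median of 0.29 over 14 genes. Slc25a4, the ADP/ATP carrier of heart and muscle, was 1 of 2 genes below 0 at 66.4, 81.7 and 128 CPM in DSS libraries 1 to 3 and 54.0, 52.9 and 56.3 CPM in DSS+BV libraries 1 to 3. Each DSS+BV library lay below each DSS library, with a log2 fold change of −0.76 (SE 0.25, edgeR adjusted p = 0.340). The porin Vdac3 had 0.52. Regulators of mitochondrial genes had 0.088 over 17 genes, none at an unadjusted p under 0.05. Ppargc1a, a coactivator of mitochondrial biogenesis, measured 18.1, 33.8 and 15.0 CPM in DSS libraries 1 to 3 and 48.1, 32.7 and 31.4 CPM in DSS+BV libraries 1 to 3. DSS library 2 exceeded 2 of the DSS+BV libraries, with a log2 fold change of 0.75 (SE 0.34, edgeR adjusted p = 0.434), and Mterf1a, which acts in mitochondrial transcription, had −0.34. The mitochondrial ribosome list, taken only by symbols starting with Mrpl or Mrps, had 0.14 over 78 genes. Of these, 62 were above 0 and 2 were higher at an unadjusted p under 0.05 (2.56%, against 3.4% of all tested genes). Mrps36 had 0.63 and Mrps6 −0.52, and whether each listed gene encodes a ribosomal protein was not checked. The cytosolic ribosome lay on the other side, at −0.20 over 79 genes, with 76 below 0 and 18 with groups separate in the other direction (22.8%, against 11.3% of all tested genes). At an unadjusted p under 0.05, 5 were lower (6.33%, against 9.12% of all tested genes). Rps21 had −0.50 and Rps26 0.061. Again none of these genes was called.

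**Figure D4:**
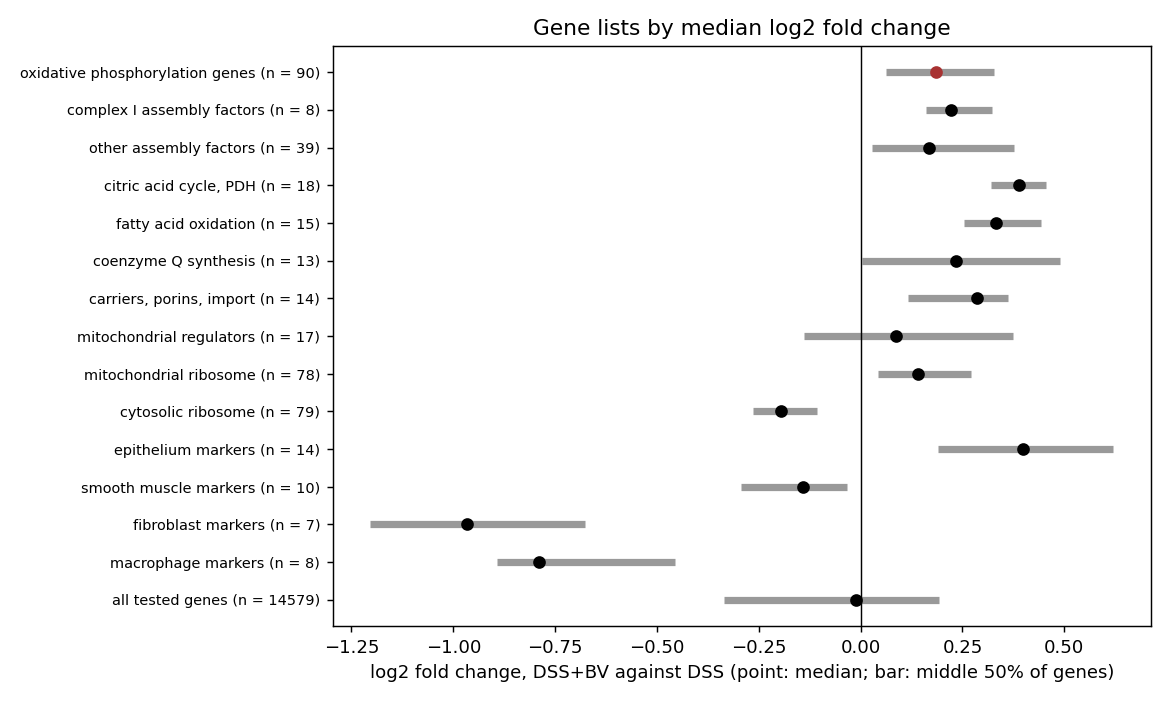
Median log2 fold change of DSS+BV against DSS (x axis, points; bars span the middle 50% of genes) for the oxidative phosphorylation genes and other gene lists (y axis, with the number of genes tested). The oxidative phosphorylation genes lie at 0.18, the citric acid cycle at 0.39 and the cytosolic ribosome at −0.20.

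Within the set, the log2 fold change went with transcript length, as it did in part in the cytosolic ribosome list. Spearman's rho was 0.47 across 89 genes with a known length and 0.43 across 38 of complex I, against 0.044 across 14233 other tested genes, 0.048 across the 6558 of them above 30 CPM, 0.36 across 78 genes of the cytosolic ribosome and 0.18 across 78 of the mitochondrial ribosome. These are correlations across genes of the same 6 libraries, which are not independent replicates, and no p is given. The median log2 fold change was 0.10 for 38 genes with transcripts under 700 nt, 0.21 for 25 genes from 700 to 1200 nt and 0.28 for 26 longer ones. In the same classes the other tested genes had −0.11, −0.074 and −0.0050, and those above 30 CPM had −0.14, −0.013 and 0.086. The set lay above both in each class, and among genes above 30 CPM the median was also higher in each longer class. In the cytosolic ribosome list the medians were −0.23, −0.14 and −0.17, the last over 10 genes, so the longest class fell back. Of the 20 members with separate groups, 11 fell among the 26 of the longest class, 4 among the 25 of the middle class and 5 among the 38 of the shortest. Among the other tested genes these counts were 825 of 12702, 45 of 1215 and 13 of 316. Within complex I the median length was 1312 nt for core and 704 nt for accessory subunits. Length and role cannot be told apart here.

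**Figure D5:**
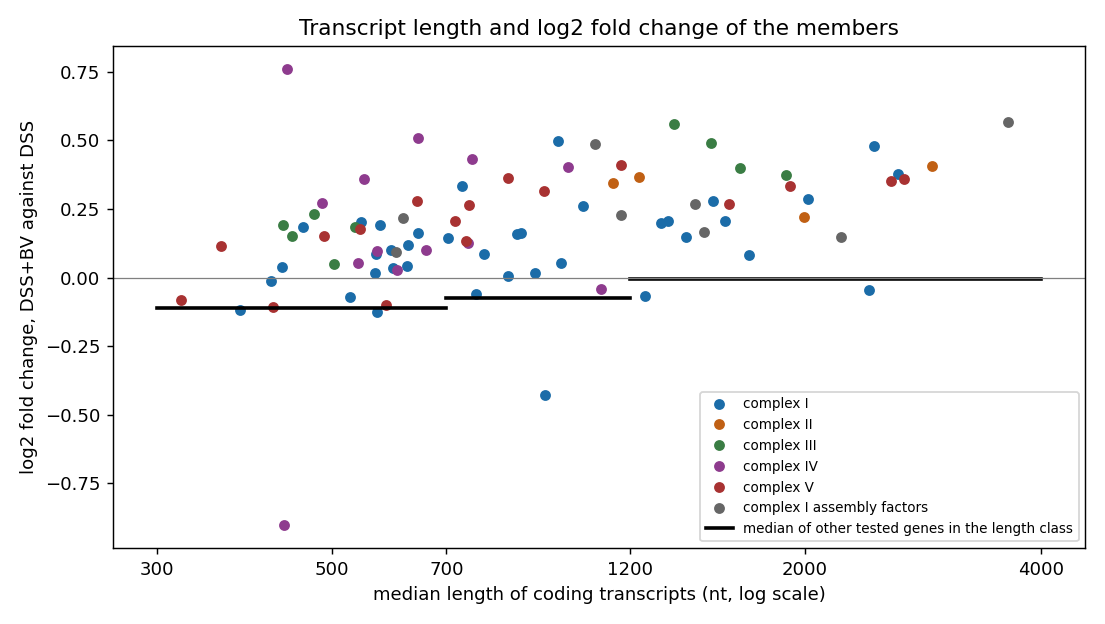
Log2 fold change of DSS+BV against DSS (y axis) against median length of the coding transcripts (nt, log scale, x axis) for 89 oxidative phosphorylation genes, coloured by complex, with black lines for the median of other tested genes in the same length class. Oxidative phosphorylation genes under 700 nt have a median of 0.10 and those of 1200 nt or more of 0.28.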

How the data were processed

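Colon RNA from 3 DSS and 3 DSS+BV mice was sequenced on a DNBSEQ-T7 after library preparation with the SMARTER mRNA-Seq kit. The authors quantified genes with RSEM and deposited expected counts per gene, unscaled. The submitters' processing notes name HISAT2 2.1.0, Bowtie2 2.2.5, RSEM 1.2.8 and GRCm38.p6. RSEM divides reads between near-identical genes, which bears on Ndufb4, Ndufb4b and Ndufb4c. Expected counts were rounded. Genes were kept with filterByExpr (minimum count 10, minimum total 15), given TMM factors, and the groups were tested in R 4.3.3 by quasi-likelihood (glmQLFTest, edgeR 4.0.16). The p-values of 14579 genes were adjusted after Benjamini and Hochberg. The biological coefficient of variation was 32.1%. CPM are counts scaled to the TMM-adjusted library size, and deviations use log2 CPM with a prior count of 2. With 3 mice a group, a two-sided exact test of a single value cannot fall below p = 0.1, so none was run. Libraries of a group differed beyond sampling noise (chi-square per degree of freedom of 17.7 to 111 over the members). The labels do not say whether mice shared cages, and p-values measure the spread between these mice. Results were recomputed with DESeq2 1.42.0, with factors by RLE or the upper quartile, with looser and stricter filters, with a robust fit, with the replicate number as a block, on subunits alone, and without each library in turn. The counts by sign and of separate groups under these alternatives, DESeq2 adjusted p alone and the Ndufb4 family summed or left out were added after the data were examined. The members and lists were chosen with earlier results of these data known. Named genes are, per complex, the 2 with the smallest p and the 2 with the highest CPM, the isoform sets, Sdha to Sdhd, the catalytic subunits and, per list, the smallest p in each direction. 1 gene is not reported here. Other named genes were chosen after their values were seen. Transcript lengths are medians over coding transcripts of the reference annotation, and promoters come from RefSeq. Figures were drawn with matplotlib 3.10.9.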

Additional observations from a re-analysis of the deposited data

How the results depend on the processing

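No oxidative phosphorylation gene was called under any alternative except that DESeq2 without a fold threshold called 2. In the edgeR fit of all libraries, 0 tested members had a log2 fold change over 1 in size. The fold threshold alone thus left little room for a call. The adjusted p alone was counted only for that fit, where 0 members were under 0.05, and for DESeq2. The count at an unadjusted p under 0.05, 6 in the edgeR fit, was 11 with DESeq2, 16 without DSS library 2 and DSS+BV library 1, and 2 to 12 with each library left out in turn. These genes were higher in DSS+BV, except that without DSS+BV library 3 the 4 were 3 higher and 1 lower (Cox6b2). The share of all tested genes at this p is not given for these alternatives, so these counts cannot be read as a result about the members. The count above 0, 77, was 64 (71.1%, against 47.8% of all tested genes) to 86 (94.5%, against 49.0%) with a library left out. With upper-quartile factors it was 68 (75.6%, against 42.4%). The count with separate groups, 20, was 57 without the pair (62.6%, against 24.8% of all tested genes) and 20 to 40 with a library left out. Where it was 40, the share of all tested genes was 17.2% (without DSS library 2) or 14.6% (without DSS+BV library 1), against 6.37% with all libraries. Without the pair the median log2 fold changes were 0.34 for the whole set, 0.27 for complex I, 0.60 for complex II, 0.49 for complex III, 0.32 for complex IV and 0.42 for complex V. With a library left out they were 0.11 to 0.27, 0.026 to 0.21, 0.22 to 0.49, 0.18 to 0.42, 0.073 to 0.26 and 0.17 to 0.34 in the same order. The pair lay nearer to the other group, so the wider difference without it follows in part from that choice. The cause of these shifts was otherwise not tested. Of 33 genes under 14 alternatives, 451 of 461 values kept their direction and side of the threshold, and 10 values in 5 genes turned their direction. Atp5g2 was at 0.14 without the pair, 0.031 without DSS library 2 and 0.016 without DSS+BV library 1 (−0.19 to 0.031 over the libraries left out). Cox7a2l was at 0.21 without the pair, 0.17 without DSS library 2 and 0.0034 without DSS+BV library 2 (−0.15 to 0.17). Ndufa4l2 was at 0.29 without DSS library 3 (−0.76 to 0.29). Cox6a1 was at −0.0082 without DSS+BV library 3 (−0.0082 to 0.20), and Cox7a2 at −0.0077 without DSS library 3 and −0.023 without DSS+BV library 3 (−0.023 to 0.19).

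The labels do not say whether the replicate numbers pair the mice. Same-numbered libraries had correlations of deviations of 0.27, 0.25 and −0.30, and those with different numbers had −0.57 to 0.48. These few values cannot decide whether the mice were paired. With the replicate number as a block, 5 genes instead of 6 reached an unadjusted p under 0.05 and the median log2 fold change of the set was 0.19. With 3 mice a group, a missed threshold does not show that levels were equal.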
